A study of Mus musculus with 15 samples.

Results

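Skin of allogeneic bone marrow recipients treated with Wnt-C59, an inhibitor of the enzyme porcupine, was compared with skin of syngeneic recipients given vehicle. The question was which changes of graft-versus-host disease were still seen under the inhibitor. The comparison used 8 of the 15 libraries of the study, 4 in each group, taken by their labels and column names, and covered all 18651 genes that passed the filter on low counts out of 56059 in the table.

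The syngeneic recipients received 0.4% methylcellulose by mouth each day from day 21 to day 49 after the transplant. Recipients in the Wnt-C59 group had an allogeneic transplant, which models the sclerodermatous form of chronic graft-versus-host disease, and were given 5 mg/kg of Wnt-C59 each day over the same days. Another 3 libraries came from allogeneic recipients given the same methylcellulose, and they supply the level of untreated disease. The remaining 4 libraries came from allogeneic recipients given the same dose of Wnt-C59 together with 150 mg/kg of belumosudil. They entered the tests only through the shared estimate of the spread. Every group had a transplant, so none shows skin without one, and no syngeneic recipient received Wnt-C59, so the effects of the graft and of the drug on the Wnt-C59 skin cannot be told apart in this comparison. The vehicle of the Wnt-C59 dose, the mouse strains, donor cells, conditioning, age, sex and skin site are not given in the sources used here. Nothing there says that the libraries came from separate animals, so the p-values measure the spread between libraries, which may be technical.

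In chronic graft-versus-host disease, donor T cells recognise recipient tissue, release interferon-gamma and recruit macrophages, while hair follicles and sebaceous glands are lost and the dermis can harden. Wnt ligands are secreted proteins that need a lipid added by porcupine (Porcn) and transport by Wls. They bind Frizzled receptors with Lrp5 or Lrp6, stabilise beta-catenin and switch on targets such as Axin2 and Lef1. In skin this pathway drives hair growth and can activate fibroblasts.

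Total estimated counts ran from 18581147 to 20390744 in the syngeneic, 16258690 to 18008884 in the allogeneic vehicle and 18992866 to 21596834 in the Wnt-C59 libraries. The keratins Krt5 and Krt14, which mark epidermis, were abundant in all 8. The table carries fractions: values above 0 that were no whole numbers made up 32.0 to 33.9% in the syngeneic libraries, 31.1 to 34.4% in the allogeneic vehicle libraries and 52.4 to 60.6% in the Wnt-C59 libraries. In CPM, counts scaled to the library size, the nuclear RNA Malat1 measured 2487, 2979, 1071 and 2020.0 CPM in syngeneic skin, 3500.0, 2797 and 3155 CPM in allogeneic vehicle skin and 125, 94.1, 65.1 and 94.3 CPM in Wnt-C59 skin. Across 18227 genes with a GC value, the median log2 fold change of Wnt-C59 against syngeneic skin went from -0.97 in the tenth of genes with the lowest GC content (mean 39.0%) to 0.64 in the tenth with the highest (mean 60.3%), while it went from 0.02 to -0.26 for allogeneic vehicle against syngeneic skin. In the libraries of Wnt-C59 with belumosudil, fractions made up 44.8 to 55.9%. Scaled by total counts alone, Malat1 measured 74.0 to 124 CPM in these, 58.1 to 128 CPM in Wnt-C59 and at least 1165 CPM in all vehicle libraries. For the fractions and Malat1 the split ran between all vehicle libraries and all libraries given Wnt-C59. The sources used here name no batch, so no comparison within a batch could be made. These differences, the GC trend and the groups cannot be told apart, against syngeneic or against allogeneic vehicle skin. Each result of Wnt-C59 against syngeneic skin was therefore recomputed with the GC trend of each library removed. For the lists and genes named, that value is given where it ended a call or moved a count by over 1.5 times. Lists and genes compared with allogeneic vehicle skin are given without this step. The Spearman correlation with GC content was 0.417 against syngeneic and 0.504 against allogeneic vehicle skin. Removal of the trend left 7558 of 9481 calls in number against allogeneic vehicle skin. The value against syngeneic skin is given for some lists besides. The log2 fold change also went with transcript length, with Spearman correlations of -0.288 for Wnt-C59 and -0.002 for allogeneic vehicle against syngeneic skin. No step removed this length trend, and its part in the calls was not tested. In bulk tissue, fewer cells of a type and less RNA per cell cannot be told apart either.

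**Figure D1:**
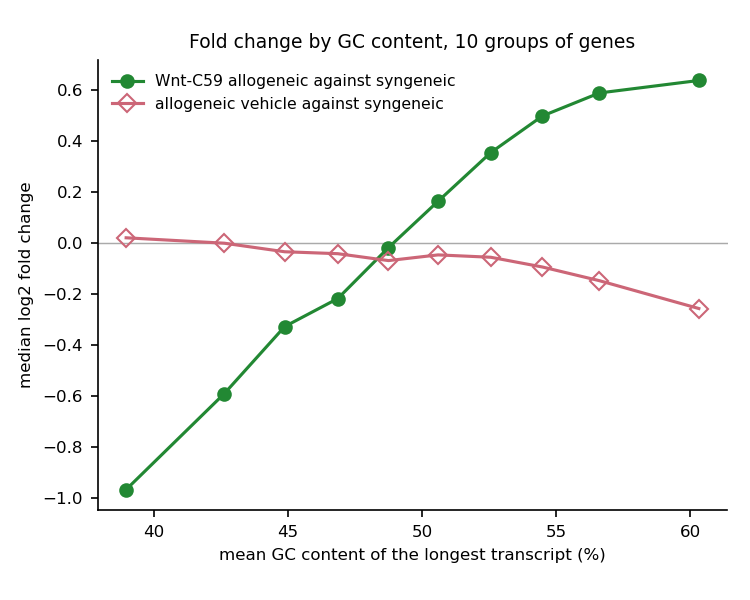
Median log2 fold change against syngeneic vehicle skin (vertical axis) in 10 groups of genes ordered by GC content of the longest transcript (horizontal axis, mean percent of each group). Filled circles are Wnt-C59 skin, which goes from -0.97 to 0.64, and open diamonds are allogeneic vehicle skin, which goes from 0.02 to -0.26.

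Expression differed widely between the Wnt-C59 and syngeneic skin. Genes counted as called where edgeR's quasi-likelihood test gave an adjusted p under 0.05 (Benjamini-Hochberg, over all genes tested), and a log2 fold change of 1 is a 2-fold difference. Of 18651 genes, 9898 (53.1%) were called, 4854 (26.0%) higher and 5044 (27.0%) lower in Wnt-C59 skin, and 5625 of them differed by at least 2-fold. With the GC trend removed 8442 (45.3%) were called, 4157 (22.3%) higher and 4285 (23.0%) lower. In allogeneic vehicle against syngeneic skin, 5556 genes (29.8%) were called, and in Wnt-C59 against allogeneic vehicle skin 9481 (50.8%). The first of these shares its 4 syngeneic libraries with the main comparison, so values of both are set side by side and no overlap is read as a result. Of the 2732 genes higher in allogeneic vehicle than in syngeneic skin, 1423 were also higher in Wnt-C59 than in syngeneic skin, 198 were lower and 1111 were not called. Of the 2824 genes lower in allogeneic vehicle skin, 1083 were also lower in Wnt-C59 skin, 464 were higher and 1277 were not called. The gene lists below were chosen with earlier results of these data known. Their counts beside the share of all genes are therefore a description and not a test.

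**Figure D2:**
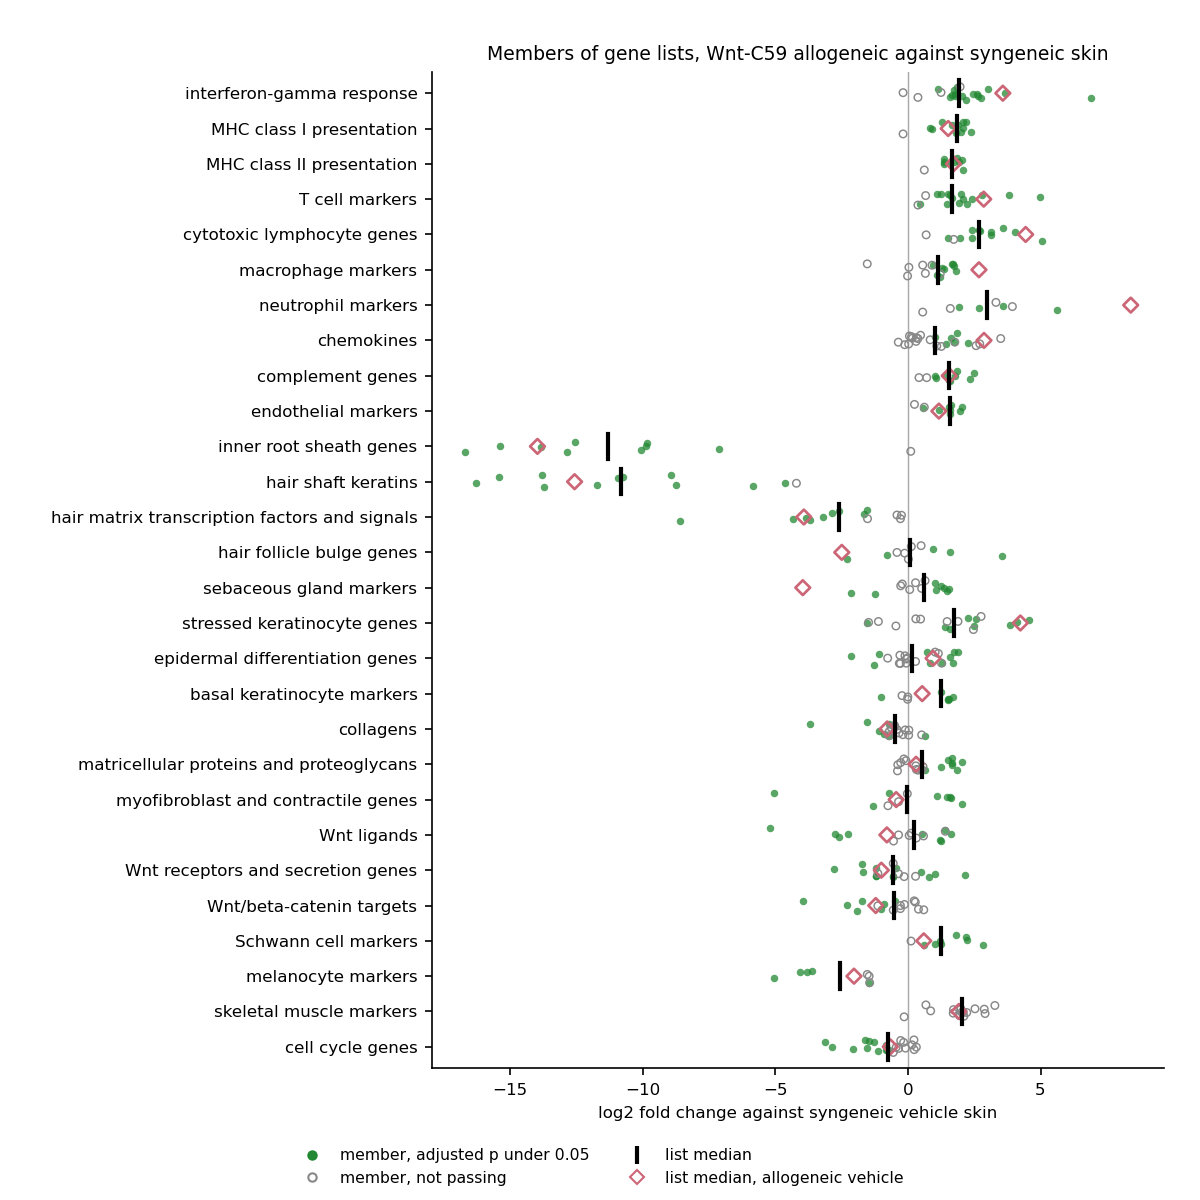
Log2 fold change of each tested member of 28 gene lists in Wnt-C59 allogeneic against syngeneic skin (horizontal axis). Filled green points passed an adjusted p under 0.05, open grey points did not, black bars are list medians, and red diamonds are the medians of allogeneic vehicle against syngeneic skin. The medians for the inner root sheath and the hair shaft keratins lie below -10, those of the interferon-gamma, T cell and cytotoxic lists lie above 1, and the sebaceous median is 0.59 with Wnt-C59 and -3.96 with vehicle.

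Interferon-gamma response genes were still raised under Wnt-C59. Of the 20 listed genes, 16 rose against syngeneic skin, beside 26.0% of all genes tested, and the other 4 did not pass (median log2 fold change 1.91, against 0.04 over all genes tested). In allogeneic vehicle skin all 20 were higher than in syngeneic skin, with a median of 3.58 and a background of 14.6% of all genes. The level in Wnt-C59 skin was below that of allogeneic vehicle skin for 13 of the 20, where 26.2% of all genes were lower. The promoters of 4 members are printed because each of these genes rose against syngeneic skin: the transcription factors Irf1 and Irf8, the guanylate-binding protein Gbp2 and the T cell chemokine Cxcl9. Each is the 250 bases before the RefSeq start in build GRCm38.p6, written 5′ to 3′ along the gene, at chr11:53769764-53770013 on the plus strand for Irf1, chr8:120736108-120736357 on the plus strand for Irf8 (each the first of several starts), chr3:142620413-142620662 on the plus strand for Gbp2 and chr5:92328080-92328329 on the minus strand for Cxcl9. Capitals mark matches, on either strand, to the letters TTCNNNGAA, known as the GAS element, and GAAANNGAAA, the ISRE bound by interferon regulatory factors.
Irf1: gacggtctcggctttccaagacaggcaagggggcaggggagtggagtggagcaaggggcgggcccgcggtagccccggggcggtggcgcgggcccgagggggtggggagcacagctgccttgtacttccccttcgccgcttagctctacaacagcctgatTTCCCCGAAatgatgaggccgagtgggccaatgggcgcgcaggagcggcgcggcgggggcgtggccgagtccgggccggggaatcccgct
Irf8: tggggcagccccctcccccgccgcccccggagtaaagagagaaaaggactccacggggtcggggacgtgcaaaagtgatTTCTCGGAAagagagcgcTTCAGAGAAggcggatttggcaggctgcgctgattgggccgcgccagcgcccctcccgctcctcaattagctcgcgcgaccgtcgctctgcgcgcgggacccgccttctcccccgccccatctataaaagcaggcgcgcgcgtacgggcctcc
Gbp2: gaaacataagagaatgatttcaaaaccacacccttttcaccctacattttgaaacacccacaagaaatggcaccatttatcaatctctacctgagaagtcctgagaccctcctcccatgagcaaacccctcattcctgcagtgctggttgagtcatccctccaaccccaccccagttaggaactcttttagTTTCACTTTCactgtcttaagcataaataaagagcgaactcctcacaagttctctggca
Cxcl9: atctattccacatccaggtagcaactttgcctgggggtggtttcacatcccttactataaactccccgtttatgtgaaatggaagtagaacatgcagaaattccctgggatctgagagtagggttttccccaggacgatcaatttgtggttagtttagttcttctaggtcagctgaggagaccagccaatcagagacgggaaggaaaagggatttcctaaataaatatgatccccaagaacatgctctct

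Irf1 had a GAS match 90 to 82 bases before the start, Irf8 GAS matches at 171 to 163 and 153 to 145 bases, and Gbp2 an ISRE match 59 to 50 bases before it. Cxcl9 held neither set of letters in this window, and no GAS match overlapped an ISRE match in these 4. The windows before the second listed start of Irf1 and of Irf8, not printed, held neither set of letters. A promoter of 300 bases, 250 before and 50 after the start, was found for 13 of the 20 genes. Of these 13, 6 (46.2%) held GAS letters and 9 (69.2%) ISRE letters. Among the 12764 tested genes with such a promoter the shares were 8.45% and 3.91%. A match is a description of the letters and shows neither binding nor a cause.

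Gbp2, which restricts intracellular pathogens, measured 24.7, 14.9, 42.5 and 21.0 CPM in syngeneic skin, 387, 306 and 349.8 CPM in allogeneic vehicle skin and 283, 74.6, 82.8 and 126 CPM in Wnt-C59 skin. All Wnt-C59 libraries lay above all syngeneic libraries and below all allogeneic vehicle libraries, with Wnt-C59 library 1 the highest of its group (log2 fold change 2.46 ± 0.46 (SE), adjusted p = 0.00067). Libraries are listed here and below in the order of their column numbers, 1 to 4 for syngeneic, 1 to 3 for allogeneic vehicle and 1, 2, 4 and 5 for Wnt-C59 skin. Irf1 measured 18.9, 14.7, 27.5 and 23.7 CPM in syngeneic skin, 180.1, 149 and 161 CPM in allogeneic vehicle skin and 225, 80.8, 84.1 and 141 CPM in Wnt-C59 skin. It was higher than in syngeneic skin in all 4 Wnt-C59 libraries (log2 fold change 2.65 ± 0.34 (SE), adjusted p = 4e-05), and its level did not differ detectably from that of allogeneic vehicle skin (log2 difference -0.30, adjusted p = 0.49). Irf8, a factor of myeloid cells, rose by 1.77 (log2).

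Cxcl9 measured 3.62, 2.69, 8.29 and 3.44 CPM in syngeneic skin, 675, 264 and 360.0 CPM in allogeneic vehicle skin and 138, 14.8, 21.0 and 57.7 CPM in Wnt-C59 skin. It rose against syngeneic skin (log2 fold change 3.68 ± 0.71 (SE), adjusted p = 0.001) and stayed below allogeneic vehicle skin (log2 difference -2.90, adjusted p = 0.0044). Without Wnt-C59 library 1 its log2 fold change was 2.79. Cxcl10, a related chemokine, measured 6.79, 3.66, 20.7 and 4.06 CPM in syngeneic skin, 143, 78.5 and 92.6 CPM in allogeneic vehicle skin and 85.6, 7.79, 7.40 and 37.2 CPM in Wnt-C59 skin, and the groups overlapped. Its log2 fold change of 1.97 ± 0.85 did not pass (adjusted p = 0.068), although it passed without syngeneic library 3 (2.83, adjusted p = 0.02) and without Wnt-C59 library 2 or 4 (both 2.30, adjusted p = 0.039 and 0.04). Ifng, the cytokine itself, was near the limit of detection in syngeneic skin, at 0.0459, 0, 0.0916 and 0.0441 CPM, and reached 1.23, 0.298, 0.0521 and 0.856 CPM in Wnt-C59 skin, where library 4 overlapped the syngeneic range (log2 fold change 3.58 ± 0.85 (SE), adjusted p = 0.003). Gvin1, a large interferon-induced GTPase, had no counts in any syngeneic library and measured 10.2, 1.69, 2.29 and 8.13 CPM in Wnt-C59 skin, at least 40.7-fold higher at a floor of 3 counts per syngeneic library. Ubd, an interferon-induced ubiquitin-like protein, measured 13.4, 1.39, 2.40 and 3.99 CPM against 0.0459, 0.0928, 0.366 and 0.176 CPM in syngeneic skin (log2 fold change 4.90). That value was 3.88 without Wnt-C59 library 1 and 5.56 without syngeneic library 3. Near-identical members of the Gbp family may share reads, so their single values are uncertain. Of 17 genes of the type I interferon response, 2 rose and 1 fell, below the 26.0% and 27.0% of all genes (median 0.34, and 0.94 with vehicle). In edgeR's test 4 of the 17 had an unadjusted p under 0.05. When single libraries were left out between 0 and 4 rose, the 4 without syngeneic library 3, and removal of the GC trend left 1.

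Antigen presentation genes remained raised under Wnt-C59. Of 12 genes for MHC class I presentation, 11 rose against syngeneic skin, beside 26.0% of all genes (median 1.86, and 1.52 with vehicle). Against allogeneic vehicle skin 2 of the 12 were lower, beside 26.2% of all genes, and the other 10 did not pass (median difference 0.12). H2-D1, a class I heavy chain, measured 844, 834, 1499 and 1244 CPM in syngeneic skin, 2900.0, 3244 and 3408 CPM in allogeneic vehicle skin and 4969, 3472, 4352 and 4919 CPM in Wnt-C59 skin. Every Wnt-C59 library exceeded every library of both vehicle groups (log2 fold change 2.00 ± 0.25 (SE), adjusted p = 3.6e-05), and the difference from allogeneic vehicle skin did not pass (log2 difference 0.48, adjusted p = 0.15). H2-K1 rose by 1.89, the peptide transporter Tap1 by 2.18 and the immunoproteasome subunit Psmb9 by 2.37 on the log2 scale. Among 10 class II genes 9 rose, beside 26.0% of all genes (median 1.65). H2-DMa, which loads peptides, led them in adjusted p (log2 fold change 2.07 ± 0.33 (SE), adjusted p = 0.00021). H2-Ab1, a class II chain, rose too, with 228 ± 89.4 CPM in syngeneic and 937 ± 225 CPM in Wnt-C59 skin (mean ± SD, n = 4 each).

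T cell transcripts were still raised and mostly lower than in untreated disease. Of 17 T cell markers 15 rose against syngeneic skin, beside 26.0% of all genes (median 1.65, against 2.86 with vehicle). Against allogeneic vehicle skin 11 were lower, beside 26.2% of all genes. Cd4, the coreceptor of helper T cells, measured 1.01, 1.53, 1.10 and 0.882 CPM in syngeneic skin, 15.1, 11.7 and 20.6 CPM in allogeneic vehicle skin and 8.61, 8.28, 5.94 and 8.70 CPM in Wnt-C59 skin. The 3 groups did not overlap, and Wnt-C59 skin lay between the others (log2 fold change 2.80 ± 0.26 (SE), adjusted p = 9e-06). Cd8a, the coreceptor of cytotoxic T cells, measured 0.0459, 0.0928, 0.0916 and 0.353 CPM in syngeneic skin, 14.8, 8.44 and 21.1 CPM in allogeneic vehicle skin and 8.05, 2.23, 3.59 and 5.28 CPM in Wnt-C59 skin. Syngeneic skin stayed below 1 CPM, and all Wnt-C59 libraries were above it (log2 fold change 4.97 ± 0.57 (SE), adjusted p = 2.2e-05), with a log2 fold change of 5.88 without syngeneic library 4. Cd3e, part of the T cell receptor, rose by 1.65 and Cd247, its signalling chain, by 2.07 on the log2 scale.

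Among 13 cytotoxic lymphocyte genes 11 rose, beside 26.0% of all genes (median 2.68, against 4.44 with vehicle). Against allogeneic vehicle skin 11 were lower, beside 26.2% of all genes. Prf1, which forms pores in target cells, measured 0.321, 0.371, 0.137 and 0.441 CPM in syngeneic skin, 9.90, 4.55 and 12.8 CPM in allogeneic vehicle skin and 4.61, 2.43, 3.07 and 1.19 CPM in Wnt-C59 skin. Its level was above syngeneic skin in every Wnt-C59 library (log2 fold change 3.13 ± 0.49 (SE), adjusted p = 0.00016). Nkg7, a granule protein, rose by 2.73 (log2) and Ctsw, a cathepsin of cytotoxic cells, by 2.43, and the difference of Ctsw from allogeneic vehicle skin did not pass (log2 difference 0.01, adjusted p = 0.98). Fasl had 2 counts over the 4 syngeneic libraries, so its ratio of 20.4 carries a 95% counting interval of 5.63 to 168. Ccl5, a T cell chemokine, measured 23.8, 3.27, 3.59 and 10.3 CPM in Wnt-C59 and 1.10, 0.371, 3.71 and 1.19 CPM in syngeneic skin, with an overlap of these ranges (log2 fold change 2.68 ± 0.80 (SE), adjusted p = 0.014). The call for Ccl5 was lost without Wnt-C59 library 1 (log2 fold change 1.84, adjusted p = 0.052), and its value was 3.52 without syngeneic library 3.

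Costimulation and checkpoint genes were raised in 7 of 12 cases, beside 26.0% of all genes (median 1.22, against 2.12 with vehicle). Against allogeneic vehicle skin 7 of the 12 were lower and 2 higher, beside 26.2% and 24.6% of all genes (median difference -1.83). Tnfrsf4, a costimulator of activated T cells also known as OX40, measured 4.82, 3.76, 6.32 and 4.01 CPM in syngeneic skin, 6.38, 5.81 and 5.24 CPM in allogeneic vehicle skin and 13.4, 13.8, 22.7 and 15.6 CPM in Wnt-C59 skin. It was highest in Wnt-C59 skin in every library (log2 fold change 1.79 ± 0.23 (SE), adjusted p = 4e-05), and it exceeded the allogeneic vehicle level by 1.49 on the log2 scale (adjusted p = 0.00026). Pdcd1, the inhibitory receptor PD-1, measured 3.13, 0.744, 0.625 and 1.14 CPM against at most 0.0882 CPM in syngeneic skin (log2 fold change 4.78, 4.03 without Wnt-C59 library 1). Of the 12 genes for regulatory, Th17 and follicular helper T cells, 6 were tested. Among them 2 rose (1 without syngeneic library 2 or Wnt-C59 library 5) and 1 fell, beside 26.0% and 27.0% of all genes. Ikzf2, known from regulatory T cells, fell by 1.42 (log2), but with the GC trend removed its change of -0.47 did not pass (adjusted p = 0.083).

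Plasma cell transcripts were uneven between libraries. Jchain, the joining chain of secreted antibodies, measured 0.138, 0.232, 0.549 and 0.0441 CPM in syngeneic skin, 19.0, 16.8 and 62.0 CPM in allogeneic vehicle skin and 2.82, 3.27, 0.781 and 57.3 CPM in Wnt-C59 skin, and Wnt-C59 library 5 was far above the other 3. It rose (log2 fold change 6.03 ± 1.40 (SE), adjusted p = 0.0035), with a log2 fold change of 3.23 without that library and 6.81 without syngeneic library 3. Igkc, the kappa light chain constant region, measured 8.71, 8.43, 4.90 and 131 CPM in Wnt-C59 skin, with library 5 again the highest. Its log2 fold change of 5.81 became 3.43 without Wnt-C59 library 5 and 7.09 without syngeneic library 3.

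**Figure D3:**
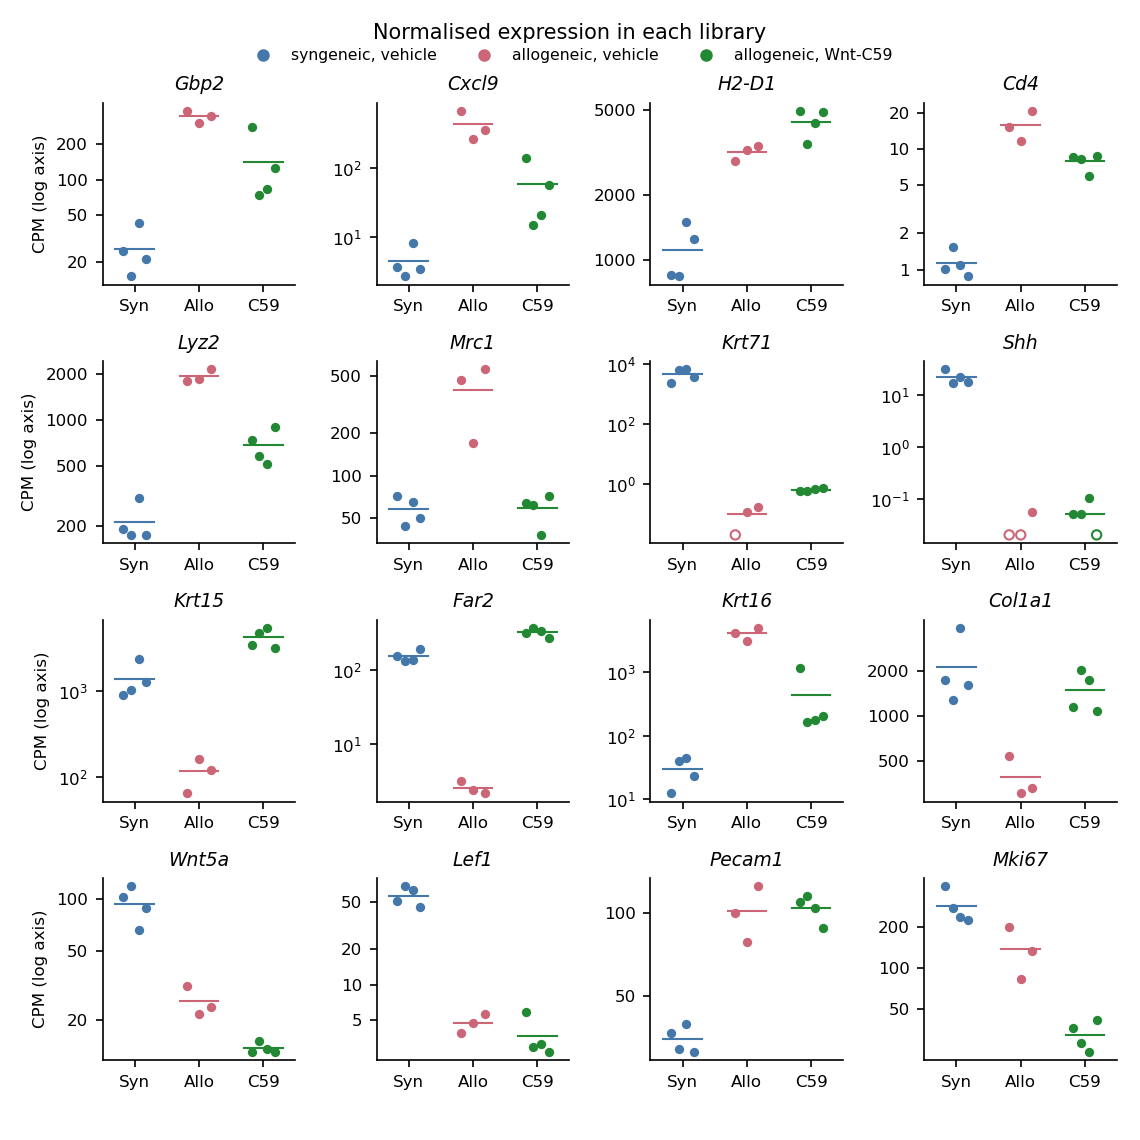
Normalised expression of 16 genes in each library, in CPM on a log axis that differs between panels. Syn, Allo and C59 are syngeneic vehicle, allogeneic vehicle and allogeneic Wnt-C59 skin, lines are group means, and open circles at 0.02 stand for 0. Gbp2, Cxcl9, Cd4 and Lyz2 lie between the vehicle groups with Wnt-C59, Mrc1 overlaps syngeneic skin, Krt71 and Shh stay near 0, and Krt15 and Far2 exceed every syngeneic library.

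Macrophage markers were partly raised. Of 16 genes 9 rose against syngeneic skin, beside 26.0% of all genes (median 1.14, against 2.68 with vehicle). All 16 were lower than in allogeneic vehicle skin, beside 26.2% of all genes. Lyz2, the lysozyme of myeloid cells, measured 191, 176, 305 and 176 CPM in syngeneic skin, 1801, 1835 and 2134 CPM in allogeneic vehicle skin and 734, 581, 511 and 892 CPM in Wnt-C59 skin. Wnt-C59 skin lay above syngeneic and below allogeneic vehicle skin in every library (log2 fold change 1.68 ± 0.23 (SE), adjusted p = 6.3e-05). The lysosomal protein Cd68 rose by 1.83, the Fc receptor Fcgr3 by 1.73, the growth factor receptor Csf1r by 1.20 and the complement component C1qb by 1.69 on the log2 scale. Mrc1, the mannose receptor of tissue macrophages, measured 71.8, 44.1, 65.3 and 50.4 CPM in syngeneic skin, 473, 170.3 and 561 CPM in allogeneic vehicle skin and 64.6, 62.3, 38.3 and 72.5 CPM in Wnt-C59 skin. Its Wnt-C59 and syngeneic ranges overlapped (log2 fold change 0.04 ± 0.35, adjusted p = 0.93), while it was -2.76 (log2) against allogeneic vehicle skin (adjusted p = 7.7e-05).

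Ccl8, a chemokine made by tissue macrophages, gave the same picture as Mrc1, with 86.0, 64.5, 129 and 62.3 CPM in syngeneic skin, 1447, 1199 and 1203 CPM in allogeneic vehicle skin and 149.6, 87.2, 80.9 and 105 CPM in Wnt-C59 skin. The 2 lower groups overlapped (0.31 ± 0.30, adjusted p = 0.4), and allogeneic vehicle skin stood apart from them. Among 23 chemokines 6 rose (median 1.02, against 2.87 with vehicle), a share close to the 26.0% of all genes that were higher, and with the GC trend removed 9 rose and 1 fell, beside 22.3% and 23.0%. Cx3cl1, an anchored chemokine of endothelium and epithelium, measured 10.8, 10.3, 12.5 and 11.7 CPM in syngeneic skin, 14.3, 13.7 and 17.6 CPM in allogeneic vehicle skin and 41.5, 28.3, 35.2 and 35.3 CPM in Wnt-C59 skin. It was highest in every Wnt-C59 library (log2 fold change 1.63 ± 0.18 (SE), adjusted p = 1.8e-05). Cxcl16, the ligand of the chemokine receptor Cxcr6, rose by 1.73, with a difference of -0.22 from allogeneic vehicle skin that did not pass (adjusted p = 0.42).

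Neutrophil markers were sparse in these libraries. Of 9 listed genes 8 were tested and 4 rose, beside 26.0% of all genes (median 3.00, and 8.40 with vehicle). DESeq2 called 5 of the 8 and limma-voom 0, with 2 at an unadjusted p under 0.05. Cxcr2, a neutrophil chemokine receptor, measured 0.596, 0.649, 0.275 and 1.01 CPM in syngeneic skin, 30.7, 34.3 and 38.6 CPM in allogeneic vehicle skin and 6.87, 5.01, 1.25 and 3.18 CPM in Wnt-C59 skin, without overlap between Wnt-C59 and syngeneic skin (log2 fold change 2.67 ± 0.73 (SE), adjusted p = 0.0081). S100a9, a calcium-binding protein of neutrophils and stressed keratinocytes, measured 0.459, 1.39, 0.916 and 1.50 CPM in syngeneic skin, 1629, 23.9 and 157 CPM in allogeneic vehicle skin and 26.5, 21.8, 1.51 and 1.66 CPM in Wnt-C59 skin. Its levels in Wnt-C59 libraries 4 and 5 were close to those of syngeneic skin, and its call (adjusted p = 0.044) was lost without any of the 4 syngeneic libraries and without Wnt-C59 library 1 or 2, at adjusted p between 0.075 and 0.1. The count of 4 became 1 without syngeneic library 2, and 2 without syngeneic library 1 or 4 or Wnt-C59 library 1 or 2. Chil3, a chitinase-like protein of alternatively activated macrophages, measured 0.0917, 0.139, 0 and 0.221 CPM in syngeneic skin, 1362, 97.7 and 1434 CPM in allogeneic vehicle skin and 18.3, 10.0, 0.99 and 1.14 CPM in Wnt-C59 skin. It rose (log2 fold change 5.99 ± 1.60 (SE), adjusted p = 0.008), by 5.08 without Wnt-C59 library 1, and stayed -6.99 (log2) against allogeneic vehicle skin.

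Complement genes rose in 9 of 11 cases, beside 26.0% of all genes (median 1.54, close to 1.56 with vehicle). C2 measured 19.3, 14.2, 30.2 and 19.2 CPM in syngeneic skin, 40.6, 50.3 and 52.3 CPM in allogeneic vehicle skin and 107, 59.3, 51.8 and 80.9 CPM in Wnt-C59 skin. All Wnt-C59 libraries were above syngeneic skin (log2 fold change 1.85 ± 0.29 (SE), adjusted p = 0.00018). C1ra, a protease of the classical pathway, rose by 1.77 and Serping1, its inhibitor, by 1.60 (log2), and Serping1 was above allogeneic vehicle skin as well (log2 difference 1.19, adjusted p = 0.0072).

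Several of the 12 genes with the largest rise without overlap between the groups are known from liver. Ahsg, a plasma protein made by hepatocytes, measured 0.138, 0.0928, 0 and 0.0441 CPM in syngeneic skin, 0.608, 0.599 and 0.113 CPM in allogeneic vehicle skin and 0.461, 0.149, 147 and 0.998 CPM in Wnt-C59 skin. Only Wnt-C59 library 4 was high, and the log2 fold change of 8.96 became 2.87 without it. Ttr, Hpd and Itih4, with log2 fold changes of 8.04, 6.92 and 5.72, gave 2.80, 3.42 and 2.31 without that library, and Ttr gave 9.03 without syngeneic library 4. Apoc3 measured 0.359, 0.893, 35.0 and 0.998 CPM and was not tested without Wnt-C59 library 2, 4 or 5, since too few libraries then passed the filter. Without syngeneic library 3 its log2 fold change was 10.56 in place of 8.33. Alb, serum albumin, chosen after its values were seen, measured 0.718, 2.18, 1184 and 19.4 CPM in Wnt-C59 and 0.78, 0.371, 0.824 and 0.441 CPM in syngeneic skin. What these transcripts in library 4 come from was not tested. Alb gave a log2 fold change of 8.95, or 3.61 without library 4. Slc13a3, a dicarboxylate transporter, measured 11.3, 1.74, 2.24 and 6.04 CPM against 0.138, 0.186, 0.275 and 0.0882 CPM in syngeneic skin (log2 fold change 4.91, 4.24 without Wnt-C59 library 1), and Cyp4f18, a myeloid cytochrome, rose by 4.78 (5.51 without syngeneic library 3). Apol7c, an apolipoprotein L of immune cells, was higher in all 4 Wnt-C59 libraries (6.10, 3.37, 7.24 and 4.42 CPM against at most 0.0917 CPM in syngeneic skin), with 3 counts in syngeneic skin and a ratio of 155 (95% counting interval 53.0 to 751). Its fitted log2 fold change of 7.03 was 7.96 without syngeneic library 1.

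**Figure D4:**
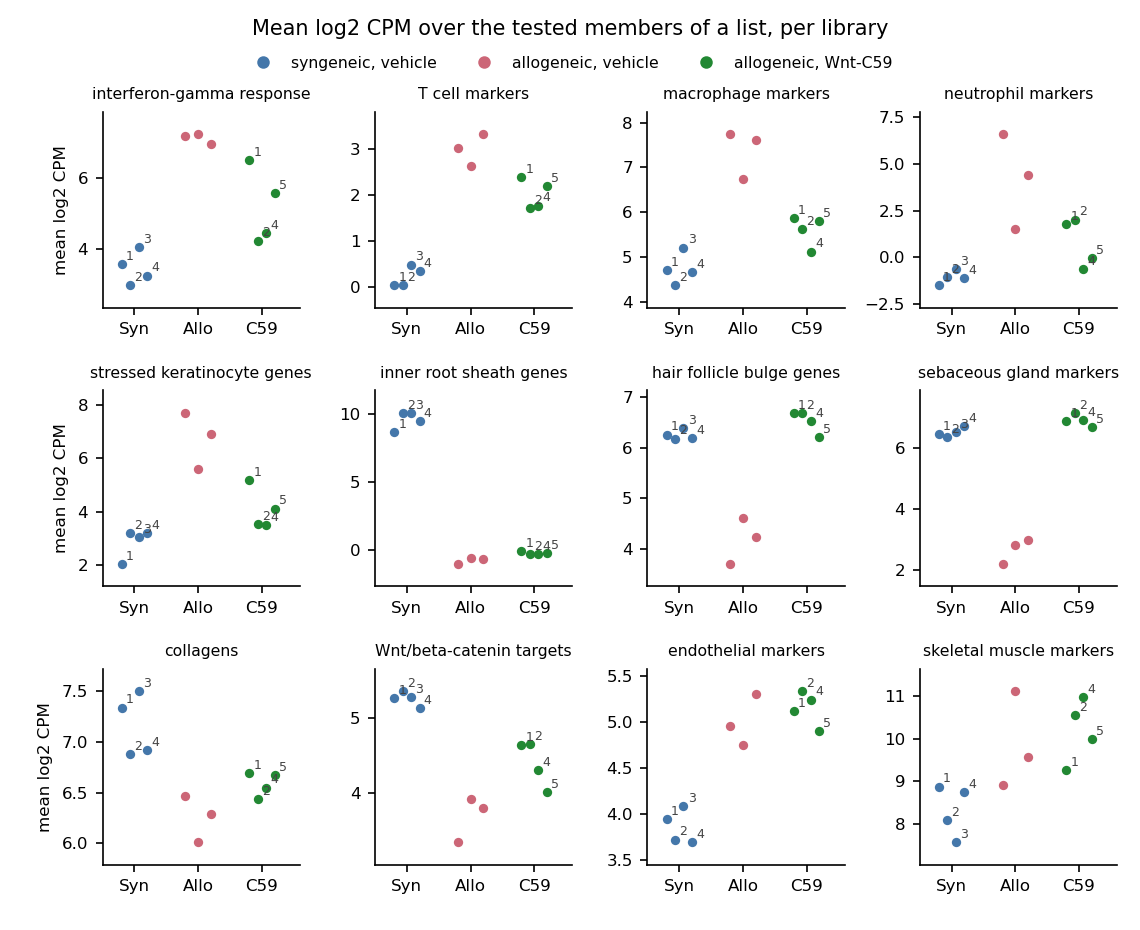
Mean log2 CPM over the tested members of 12 gene lists (vertical axes, differing between panels) in each library of syngeneic vehicle (Syn), allogeneic vehicle (Allo) and Wnt-C59 (C59) skin, with library numbers beside the points of Syn and C59. Wnt-C59 libraries 1 and 5 are the highest of their group for the interferon-gamma list (6.52 and 5.57) and libraries 4 and 2 for skeletal muscle (10.97 and 10.55).

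Transcripts of the growing hair were absent or nearly absent under Wnt-C59, as in untreated disease. Of 10 genes of the inner root sheath, the layer that moulds the hair, 9 fell, beside 27.0% of all genes tested (median log2 fold change -11.31, and -13.96 with vehicle). Krt71, a keratin of this sheath, measured 2365, 6522, 6650.0 and 3738 CPM in syngeneic skin, 0, 0.12 and 0.169 CPM in allogeneic vehicle skin and 0.564, 0.595, 0.677 and 0.76 CPM in Wnt-C59 skin. Every syngeneic library was far above both allogeneic groups, which stayed under 1 CPM (log2 fold change -12.84 ± 2.87 (SE), adjusted p = 0.003). Tchh, which hardens the sheath, measured 2083, 8242, 6714 and 3354 CPM in syngeneic skin, 18.0, 7.66 and 16.6 CPM in allogeneic vehicle skin and 6.46, 6.25, 4.11 and 5.51 CPM in Wnt-C59 skin. It stayed low in both allogeneic groups (log2 fold change -9.83 ± 2.21 (SE), adjusted p = 0.003). Krt27 fell by 12.55 on the log2 scale, and Krt25 had 2 counts over the 4 Wnt-C59 libraries against a mean of 3261 CPM in syngeneic skin, with a fitted log2 fold change of -16.68 (-19.01 without Wnt-C59 library 5). Krt26 had no counts in Wnt-C59 skin, at least 1734-fold lower at 3 counts per library.

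Of 13 hair shaft keratins 12 were tested and 11 fell, beside 27.0% of all genes (median -10.82, and -12.56 with vehicle). Krt33a, a cortex keratin, measured 46.2, 914, 699 and 409 CPM in syngeneic skin, 0, 0 and 0 CPM in allogeneic vehicle skin and 0.103, 0.298, 0.0521 and 0.143 CPM in Wnt-C59 skin. Syngeneic library 1 was the lowest of its group and still far above all Wnt-C59 libraries (log2 fold change -11.70 ± 3.29 (SE), adjusted p = 0.014). Krt35, a keratin of the hair matrix and cortex, measured 254, 579, 601 and 466 CPM in syngeneic skin, 0.182, 0 and 0 CPM in allogeneic vehicle skin and 0.154, 0.298, 0.365 and 0.143 CPM in Wnt-C59 skin, again without overlap (log2 fold change -10.92 ± 2.52 (SE), adjusted p = 0.0036). Krt81 and Krt33b had no counts in any Wnt-C59 or allogeneic vehicle library, at least 3230-fold and 1767-fold lower than in syngeneic skin. For both, and for Krt26, the call (adjusted p = 0.041, 0.041 and 0.033) was lost when any of the 8 libraries was left out, at adjusted p of 0.052 to 0.077. Limma-voom called 2 of the inner root sheath and 2 of the shaft genes, and a fit with the skeletal muscle score called 3 of the shaft genes. For 9 inner root sheath and 11 shaft genes the libraries of both groups did not overlap, where 26.0% of all genes were lower without overlap and 50.6% differed without overlap in either direction. Near-identical keratin copies may share reads.

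Signals of the hair matrix were low too. Of 13 genes 9 fell, beside 27.0% of all genes (median -2.60, and -3.92 with vehicle). Against allogeneic vehicle skin 4 were higher, beside 24.6% of all genes. Shh, the sonic hedgehog ligand of the hair matrix, measured 30.9, 17.1, 21.9 and 17.4 CPM in syngeneic skin, 0, 0 and 0.0564 CPM in allogeneic vehicle skin and 0.0513, 0.0496, 0.104 and 0 CPM in Wnt-C59 skin. No library of either allogeneic group came near syngeneic skin (log2 fold change -8.60 ± 1.61 (SE), adjusted p = 0.00085). Ptch1, the receptor and a target of Shh, measured 229, 114, 103 and 128 CPM in syngeneic skin, 28.8, 40.2 and 48.0 CPM in allogeneic vehicle skin and 22.0, 23.7, 16.5 and 16.8 CPM in Wnt-C59 skin, and it was lowest with Wnt-C59 (log2 fold change -2.86 ± 0.41 (SE), adjusted p = 0.00011). The homeobox factors of hair differentiation Msx1 and Hoxc13 fell by 3.67 and 3.21 on the log2 scale.

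Stem cell genes of the follicle bulge were mixed against syngeneic skin and mostly above untreated disease. Of 10 genes, 3 rose and 2 fell against syngeneic skin, beside 26.0% and 27.0% of all genes (median 0.08, against -2.49 with vehicle). Against allogeneic vehicle skin 8 were higher, beside 24.6% of all genes. Krt15, a keratin of bulge and basal cells, measured 894, 1012, 2325 and 1257 CPM in syngeneic skin, 64.2, 162 and 120.1 CPM in allogeneic vehicle skin and 3428, 4669, 5353 and 3146 CPM in Wnt-C59 skin. Every Wnt-C59 library exceeded every syngeneic library, which in turn exceeded allogeneic vehicle skin (log2 fold change 1.60 ± 0.32 (SE), adjusted p = 0.0009). Fgf18, a growth factor of the resting follicle, measured 1.28, 2.69, 2.38 and 2.34 CPM in syngeneic skin, 0.122, 0.898 and 0.0564 CPM in allogeneic vehicle skin and 23.1, 35.4, 26.7 and 16.4 CPM in Wnt-C59 skin. It was high in Wnt-C59 skin alone among these 3 groups (log2 fold change 3.54 ± 0.51 (SE), adjusted p = 9.6e-05). Nfatc1, a factor of quiescent bulge cells, rose by 0.95, while Lgr5, a receptor of follicle stem cells, and Sox9, a bulge factor, fell by 2.31 and 0.79 on the log2 scale. Sox9 still exceeded allogeneic vehicle skin by 1.77 (adjusted p = 3.1e-05). With the GC trend removed 5 of the 10 rose and 2 fell, beside 22.3% and 23.0% of all genes.

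Sebaceous gland genes were mixed against syngeneic skin and mostly above untreated disease. Of 14 markers 6 rose, 2 fell and 6 did not pass (median 0.59, against -3.96 with vehicle), beside 26.0% and 27.0% of all genes. Removal of the GC trend gave 9 higher and 1 lower, beside 22.3% and 23.0% of all genes. Against allogeneic vehicle skin 13 were higher, beside 24.6% of all genes. Far2, which makes wax alcohols, measured 153, 129, 135 and 189.9 CPM in syngeneic skin, 3.22, 2.46 and 2.20 CPM in allogeneic vehicle skin and 306, 362, 328 and 267 CPM in Wnt-C59 skin. All Wnt-C59 libraries were above syngeneic skin, and allogeneic vehicle skin was nearly devoid of it (log2 fold change 1.06 ± 0.22 (SE), adjusted p = 0.0011). Awat1, a wax synthase, measured 35.5, 25.4, 42.8 and 40.1 CPM in syngeneic skin, 0, 0.24 and 0.338 CPM in allogeneic vehicle skin and 86.0, 98.5, 83.0 and 77.1 CPM in Wnt-C59 skin, in the same order (log2 fold change 1.26 ± 0.33 (SE), adjusted p = 0.0051). Cidea and Acsbg1, of lipid droplets and fatty acid activation, rose by 1.37 and 1.56 (log2). For Scd1, the stearoyl-CoA desaturase, the difference of 0.65 ± 0.52 (log2) had an adjusted p = 0.3 and did not pass. The delta-6 desaturase Fads2 measured 63.3, 73.5, 86.7 and 72.8 CPM in syngeneic skin, 4.62, 5.93 and 6.26 CPM in allogeneic vehicle skin and 16.1, 16.3, 23.3 and 11.0 CPM in Wnt-C59 skin. It fell against syngeneic skin (log2 fold change -2.15 ± 0.44 (SE), adjusted p = 0.0012) and was above allogeneic vehicle skin. Mc5r, the melanocortin receptor of sebocytes, fell by 1.25 (log2), but at -0.75 it did not pass with the GC trend removed (adjusted p = 0.059).

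Of 20 genes of cholesterol and fatty acid synthesis 5 rose and 4 fell (median 0.14), shares at or below the 26.0% and 27.0% of all genes. Fasn, the fatty acid synthase, measured 572, 467, 557 and 424 CPM in syngeneic skin, 102, 417 and 303 CPM in allogeneic vehicle skin and 1794, 4020.0, 758 and 1545 CPM in Wnt-C59 skin. It was higher in all Wnt-C59 libraries than in syngeneic skin (log2 fold change 2.01 ± 0.48 (SE), adjusted p = 0.0031). Its regulator Srebf1 rose by 1.25 and the cholesterol enzyme Dhcr7 by 0.98 (log2). Adipocyte markers, which share lipid genes, had summed levels of 1458 to 2718 CPM in syngeneic and 1579 to 4478 CPM in Wnt-C59 skin. Of these 12 markers 4 rose and 1 fell, beside 26.0% and 27.0% of all genes. The count of 4 became 7 without Wnt-C59 library 4. In the test against allogeneic vehicle skin, 10 of these 12 markers were higher, beside 24.6% of all genes (median difference 1.83). The part of adipocytes in the lipid genes, and in the sebaceous genes above allogeneic vehicle skin, was not tested.

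The count of keratinocyte stress genes that rose depended on single libraries. Of 18 genes 8 rose and 2 fell (median 1.75, against 4.24 with vehicle), beside 26.0% and 27.0% of all genes. Against allogeneic vehicle skin 15 were lower, beside 26.2% of all genes. The count of 8 became 4 without Wnt-C59 library 1, a share below that of all genes, and 5 without syngeneic library 1. After removal of the GC trend 6 rose and 2 fell, beside 22.3% and 23.0% of all genes. Krt16, a keratin of injured epidermis, measured 12.4, 40.2, 44.4 and 23.0 CPM in syngeneic skin, 4156, 3141 and 4983 CPM in allogeneic vehicle skin and 1182, 167, 175 and 208 CPM in Wnt-C59 skin. Wnt-C59 library 1 was the highest of its group, and the other 3 still exceeded all syngeneic libraries (log2 fold change 3.85 ± 0.97 (SE), adjusted p = 0.0053). Without library 1 its log2 fold change was 2.61 (adjusted p = 0.016). Krt6b, its partner, measured 13.6, 27.9, 21.8 and 24.6 CPM in syngeneic skin, 6732, 3507 and 6582 CPM in allogeneic vehicle skin and 1243, 131, 46.3 and 108 CPM in Wnt-C59 skin, and lost its call without that library (2.11, adjusted p = 0.06). Krt6a rose by 1.40 and lost its call without that library (0.88, adjusted p = 0.099), also without syngeneic library 1 (1.26, adjusted p = 0.066) and with the GC trend removed (1.00, adjusted p = 0.098). Il1f9, which encodes the alarm cytokine IL-36 gamma, rose by 1.60, and Sprr2d, a cornified envelope protein with close copies, by 4.56 (3.72 without Wnt-C59 library 1). Tgfa, a ligand of the EGF receptor, fell by 1.53.

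Of 9 markers of basal keratinocytes 5 rose and 1 fell (median 1.25), beside 26.0% and 27.0% of all genes. Krt5, the basal keratin, measured 3072, 2724, 4665 and 4027 CPM in syngeneic skin, 5660.0, 4977 and 5154 CPM in allogeneic vehicle skin and 10390.0, 9642, 11960.0 and 9633 CPM in Wnt-C59 skin. Its Wnt-C59 libraries were above all others (log2 fold change 1.52 ± 0.20 (SE), adjusted p = 4.1e-05). Krt14, its partner, rose by 1.55 and the hemidesmosome integrin Itgb4 by 1.52, while Trp63, the master factor of basal cells, fell by 1.02 (log2). Among 22 differentiation genes 7 rose and 3 fell (median 0.14), the first share close to and the second below that of all genes. These became 4 and 1 with the GC trend removed, below the 22.3% and 23.0% of all genes. Krt10, a suprabasal keratin, measured 3974, 2458, 3765 and 5036 CPM in syngeneic skin, 1130.0, 9833 and 5071 CPM in allogeneic vehicle skin and 11870.0, 6719, 10570.0 and 16270.0 CPM in Wnt-C59 skin. It was high in all Wnt-C59 libraries (log2 fold change 1.58 ± 0.48 (SE), adjusted p = 0.013), and Lor, loricrin of the cornified layer, rose by 1.73. At 1.01 (adjusted p = 0.052) Lor did not pass with the GC trend removed. Krt1 rose by 1.72 and the corneodesmosome protein Cdsn by 1.27, and Dsc1, a desmosomal cadherin of the upper layers, measured 325, 345, 129 and 313 CPM in syngeneic skin, 469.6, 449 and 725 CPM in allogeneic vehicle skin and 89.2, 55.4, 40.4 and 66.0 CPM in Wnt-C59 skin. Dsc1 was lowest in Wnt-C59 skin (log2 fold change -2.15 ± 0.31 (SE), adjusted p = 8.9e-05).

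Of 20 collagens 1 rose, 6 fell and 13 did not pass (median -0.50, and -0.78 with vehicle), and the share that fell was close to the 27.0% of all genes. With the GC trend removed 15 fell, beside 23.0% of all genes, with a median of -0.86. The single rise, of the microfibril chain Col6a1 (0.64, and 0.12 with adjusted p = 0.68 when the GC trend was removed), was lost without syngeneic library 1, 2 or 4 or Wnt-C59 library 1, 4 or 5, and 2 genes rose without syngeneic library 3. Col1a1, the main chain of dermal collagen, measured 1731, 1269, 3857 and 1603 CPM in syngeneic skin, 538, 304 and 333 CPM in allogeneic vehicle skin and 1144, 2025, 1725 and 1076 CPM in Wnt-C59 skin. The syngeneic and Wnt-C59 ranges overlapped, and allogeneic vehicle skin was the lowest (log2 fold change -0.50 ± 0.39 for Wnt-C59 against syngeneic skin, adjusted p = 0.29). At -1.07 with the GC trend removed it passed (adjusted p = 0.031). Col1a2 and Col3a1 gave -0.50 and -0.63 (adjusted p = 0.23 and 0.073), and they passed too with the GC trend removed (-0.98 and -0.89, adjusted p = 0.028 and 0.022). All 3 were higher than in allogeneic vehicle skin, by 1.93, 1.57 and 0.85 (log2). Col11a1, a fibril-nucleating chain, measured 41.3, 25.3, 28.0 and 22.6 CPM in syngeneic skin, 2.19, 2.99 and 3.67 CPM in allogeneic vehicle skin and 2.77, 0.992, 1.88 and 3.47 CPM in Wnt-C59 skin. It was low in both allogeneic groups (log2 fold change -3.68 ± 0.62 (SE), adjusted p = 0.00031). Col15a1 of basement membranes fell by 0.72 and the fibril regulator Col5a2 by 0.90.

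Enzymes that crosslink collagen moved in different directions, with 9 of 16 higher and 3 lower, beside 26.0% and 27.0% of all genes (median 0.58). Lox, the lysyl oxidase, measured 32.3, 26.1, 24.3 and 20.3 CPM in syngeneic skin, 114, 55.6 and 80.2 CPM in allogeneic vehicle skin and 15.1, 13.4, 4.95 and 10.0 CPM in Wnt-C59 skin. It was lowest in Wnt-C59 skin and highest in allogeneic vehicle skin (log2 fold change -1.25 ± 0.30 (SE), adjusted p = 0.0031). Plod2, a lysyl hydroxylase of telopeptides, measured 20.3, 15.6, 11.4 and 11.2 CPM in syngeneic skin, 13.7, 6.77 and 6.54 CPM in allogeneic vehicle skin and 2.05, 1.89, 2.08 and 2.38 CPM in Wnt-C59 skin, and Wnt-C59 skin was again the lowest (log2 fold change -2.80 ± 0.39 (SE), adjusted p = 6.4e-05). Loxl1, of elastic fibres, and the helical hydroxylase Plod1 rose by 1.50 and 1.43 (log2).

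Matricellular proteins and proteoglycans rose in 8 of 18 cases, beside 26.0% of all genes (median 0.55). Without syngeneic library 2 or 4 or Wnt-C59 library 2 the count was 5, a share close to that of all genes. Fmod, the proteoglycan fibromodulin, measured 21.4, 15.7, 32.0 and 19.9 CPM in syngeneic skin, 2.01, 18.3 and 16.7 CPM in allogeneic vehicle skin and 85.0, 85.9, 115 and 79.4 CPM in Wnt-C59 skin. Wnt-C59 skin was the highest in every library (log2 fold change 2.04 ± 0.46 (SE), adjusted p = 0.0023). Ccn2, a profibrotic factor known as CTGF, measured 36.0, 42.0, 52.2 and 28.1 CPM in syngeneic skin, 38.9, 34.2 and 58.4 CPM in allogeneic vehicle skin and 148, 101, 153 and 97.4 CPM in Wnt-C59 skin. It too was highest in Wnt-C59 skin (log2 fold change 1.65 ± 0.24 (SE), adjusted p = 7.8e-05), and it exceeded allogeneic vehicle skin by 1.51 (adjusted p = 0.00031). Prelp, a matrix anchor, rose by 1.53 and Tnn, tenascin-N, by 1.66. Among 18 proteases and inhibitors 6 rose and 2 fell, beside 26.0% and 27.0% of all genes (1 fell without syngeneic library 1 or Wnt-C59 library 4 or 5). Timp2 (0.93), the plasminogen activator Plau (0.88) and Mmp9 (2.65, or 1.73 without Wnt-C59 library 1) were among those that rose. Limma-voom called 3 higher, and removal of the GC trend left 4 higher and 1 lower, beside 22.3% and 23.0% of all genes.

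Of 11 myofibroblast and contractile genes 5 rose and 3 fell (median -0.02), beside 26.0% and 27.0% of all genes, and 5 and 2 with the GC trend removed. Acta2, smooth muscle actin, measured 126, 204, 326 and 252 CPM in syngeneic skin, 129, 188 and 185 CPM in allogeneic vehicle skin and 508, 509.8, 584 and 359 CPM in Wnt-C59 skin. All Wnt-C59 libraries lay above syngeneic skin (log2 fold change 1.11 ± 0.26 (SE), adjusted p = 0.0029). Cnn1 and Myl9, of the contractile apparatus, rose by 1.48 and 1.60 (log2). Myh11, the myosin of vascular and arrector smooth muscle, rose by 1.47. Of 8 smooth muscle and pericyte markers 5 rose, beside 26.0% of all genes, with 5 higher and 2 lower once the GC trend was removed. A part of smooth muscle in the contractile genes therefore cannot be told apart. Lrrc15, a marker of activated fibroblasts, measured 113, 421, 295 and 225 CPM in syngeneic skin, 16.2, 5.69 and 11.0 CPM in allogeneic vehicle skin and 15.8, 1.93, 4.79 and 9.27 CPM in Wnt-C59 skin. It was low in both allogeneic groups (log2 fold change -5.05 ± 1.46 (SE), adjusted p = 0.013). Fap, fibroblast activation protein, fell by 1.31, but did not pass at -0.39 with the GC trend removed (adjusted p = 0.14). Of 13 fibroblast identity genes 5 rose and 1 fell, beside 26.0% and 27.0% of all genes. The count of 5 became 2 without syngeneic library 1 or 2 and 3 without Wnt-C59 library 4 or 5. With the GC trend removed edgeR called 0, with 4 at an unadjusted p under 0.05. Without that step limma-voom and DESeq2 called the same counts as edgeR. Twist1, a mesenchymal factor, rose by 1.14, and it did not pass at 0.53 with the GC trend removed (adjusted p = 0.14).

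TGF-beta genes were mixed, with 5 of 16 higher and 4 lower (median 0.20), shares close to the 26.0% and 27.0% of all genes. Removal of the GC trend gave 4 higher and 6 lower genes, beside 22.3% and 23.0%. Tgfb1, the ligand, measured 31.8, 26.3, 38.8 and 36.1 CPM in syngeneic skin, 86.0, 60.0 and 75.8 CPM in allogeneic vehicle skin and 74.5, 84.2, 86.2 and 79.3 CPM in Wnt-C59 skin. Both allogeneic groups were above syngeneic skin and overlapped each other (log2 fold change 1.29 ± 0.16 (SE), adjusted p = 3.2e-05). Tgfbi, an induced matrix protein, rose by 2.03 and the latency protein Ltbp4 by 1.56 (log2). Skil, a feedback repressor and early target, measured 62.8, 54.1, 37.1 and 47.0 CPM in syngeneic skin, 122, 58.2 and 105 CPM in allogeneic vehicle skin and 14.2, 10.4, 9.90 and 17.5 CPM in Wnt-C59 skin. It was lowest in Wnt-C59 skin (log2 fold change -1.95 ± 0.24 (SE), adjusted p = 3.3e-05), as was the receptor Tgfbr1 (log2 fold change -1.45 ± 0.18 (SE), adjusted p = 3.5e-05). Bambi, a decoy receptor that is also a Wnt target, fell by 3.00.

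Genes of the Wnt pathway differed by member. RNA levels do not measure lipidation or secretion, the step at which Wnt-C59 acts. Of 19 ligands 16 were tested, and 5 rose and 4 fell (median 0.22), shares close to the 26.0% and 27.0% of all genes. Wnt5a, a non-canonical ligand of the dermis, measured 102, 118, 66.4 and 87.8 CPM in syngeneic skin, 31.4, 21.7 and 23.9 CPM in allogeneic vehicle skin and 13.2, 15.2, 13.6 and 13.2 CPM in Wnt-C59 skin. The groups did not overlap and Wnt-C59 skin was the lowest (log2 fold change -2.76 ± 0.38 (SE), adjusted p = 7.7e-05). Wnt10b, a ligand of hair growth, measured 40.0, 45.6, 30.8 and 34.4 CPM in syngeneic skin, 1.58, 4.85 and 3.50 CPM in allogeneic vehicle skin and 6.05, 7.19, 5.57 and 6.37 CPM in Wnt-C59 skin. It was low in both allogeneic groups (log2 fold change -2.58 ± 0.58 (SE), adjusted p = 0.0023). Wnt11 fell by 2.26, while the epidermal ligands Wnt7b and Wnt10a rose by 1.61 and 1.24 (log2). With the GC trend removed 2 ligands rose and 6 fell, beside 22.3% and 23.0% of all genes. The count of 5 that rose became 2 without syngeneic library 1 and 3 without syngeneic library 2 or 4 or Wnt-C59 library 4 or 5. Among 18 receptors and secretion genes 4 rose and 9 fell, beside 26.0% and 27.0% of all genes (median -0.55). Removal of the GC trend left 2 higher and 10 lower, beside 22.3% and 23.0%. Lrp6, a coreceptor, measured 163, 140.4, 88.7 and 112 CPM in syngeneic skin, 113, 94.2 and 137 CPM in allogeneic vehicle skin and 39.0, 41.3, 36.4 and 38.6 CPM in Wnt-C59 skin. It fell with Wnt-C59, while allogeneic vehicle and syngeneic skin overlapped (log2 fold change -1.70 ± 0.22 (SE), adjusted p = 4.1e-05). Its relative Lrp5 rose by 0.80, and the Frizzled receptors Fzd5 and Fzd3 fell by 2.80 and 1.73.

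Porcn, which encodes the target of the drug, measured 14.7, 21.8, 16.1 and 15.0 CPM in syngeneic skin, 51.8, 18.9 and 54.1 CPM in allogeneic vehicle skin and 29.6, 13.2, 17.2 and 22.2 CPM in Wnt-C59 skin. Its Wnt-C59 and syngeneic ranges overlapped (log2 fold change 0.29 ± 0.31, adjusted p = 0.45, and -0.17 with the GC trend removed), and the level was below allogeneic vehicle skin (log2 difference -1.01, adjusted p = 0.019). Wls fell by 0.57 (adjusted p = 0.013), but with the GC trend removed its value was 0.13 and did not pass (adjusted p = 0.5).

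Targets of beta-catenin were low in 7 of 16 cases, beside 27.0% of all genes (median -0.52, and -1.21 with vehicle). Against allogeneic vehicle skin 7 were higher, beside 24.6% of all genes. After removal of the GC trend 10 of the 16 fell, beside 23.0% of all genes. Axin2, the usual readout of the pathway, measured 65.8, 60.3, 43.0 and 57.6 CPM in syngeneic skin, 20.2, 38.8 and 35.6 CPM in allogeneic vehicle skin and 71.0, 80.3, 31.4 and 24.9 CPM in Wnt-C59 skin. The ranges overlapped, with Wnt-C59 libraries 1 and 2 above and libraries 4 and 5 below the syngeneic libraries (log2 fold change -0.13 ± 0.35, adjusted p = 0.77). Lef1, a partner of beta-catenin with high levels in hair matrix, measured 51.2, 68.1, 63.1 and 45.8 CPM in syngeneic skin, 3.89, 4.79 and 5.64 CPM in allogeneic vehicle skin and 5.95, 2.98, 3.18 and 2.71 CPM in Wnt-C59 skin. Both allogeneic groups were far below syngeneic skin (log2 fold change -3.94 ± 0.73 (SE), adjusted p = 0.00075). Znrf3 and Nkd2, feedback inhibitors, and Ccnd1, cyclin D1, fell by 1.91, 1.72 and 0.89 (log2). Lef1, Lgr5 and other targets are also hair follicle genes. As described above, transcripts of the growing hair were low while bulge genes were mixed. The part of the hair follicle in these counts was not tested. Among antagonists and R-spondins, of which 12 of 15 were tested, 2 rose and 4 fell, beside 26.0% and 27.0% of all genes, with 2 lower without syngeneic library 1 or 4 or Wnt-C59 library 2 or 4. Once the GC trend was removed, 4 of the 12 rose and 3 fell, beside 22.3% and 23.0% of all genes. Sfrp1, a decoy for Wnt ligands, fell by 0.90, the related secreted protein Dkk3 rose by 0.81, and Rspo2, an enhancer of Wnt signals, measured 0.154, 0, 0.313 and 0.0475 CPM against 2.29, 3.20, 2.38 and 1.94 CPM in syngeneic skin (log2 fold change -4.21, -5.09 without Wnt-C59 library 4).

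Endothelial transcripts were raised in both allogeneic groups. Of 10 markers 8 rose, beside 26.0% of all genes (median 1.57, and 1.17 with vehicle). Pecam1, an adhesion molecule of vessels, measured 36.7, 32.1, 39.7 and 31.3 CPM in syngeneic skin, 100.3, 78.8 and 125 CPM in allogeneic vehicle skin and 109, 116, 105 and 88.0 CPM in Wnt-C59 skin. The Wnt-C59 and allogeneic vehicle ranges overlapped, and both lay above syngeneic skin (log2 fold change 1.58 ± 0.19 (SE), adjusted p = 2.8e-05). Cdh5, the vascular cadherin, rose by 1.59 and Eng, a TGF-beta coreceptor, by 1.98 (log2). Of 10 adhesion genes 9 were tested and 6 rose, beside 26.0% of all genes. Vcam1, which holds leukocytes on inflamed vessels, measured 4.22, 2.69, 4.53 and 3.00 CPM in syngeneic skin, 126, 59.8 and 119 CPM in allogeneic vehicle skin and 28.9, 12.5, 9.90 and 18.3 CPM in Wnt-C59 skin. It lay between the vehicle groups (log2 fold change 2.27 ± 0.41 (SE), adjusted p = 0.00049), while Icam1 rose by 1.58 and did not differ detectably from allogeneic vehicle skin (log2 difference -0.33, adjusted p = 0.3).

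Schwann cell markers rose in 8 of 9 cases, beside 26.0% of all genes (median 1.25, and 0.60 with vehicle). Sox10, a factor of neural crest cells, measured 9.13, 5.52, 8.51 and 8.20 CPM in syngeneic skin, 8.08, 15.9 and 11.6 CPM in allogeneic vehicle skin and 34.1, 31.7, 46.8 and 31.2 CPM in Wnt-C59 skin. All Wnt-C59 libraries were above both vehicle groups (log2 fold change 2.20 ± 0.26 (SE), adjusted p = 2.3e-05). Melanocyte markers went the other way, with 5 of 8 lower, beside 27.0% of all genes (median -2.57). Tyr, the tyrosinase of pigment synthesis, measured 14.2, 9.28, 8.38 and 7.19 CPM in syngeneic skin, 1.46, 1.74 and 2.54 CPM in allogeneic vehicle skin and 0.308, 0.0992, 0.26 and 0.475 CPM in Wnt-C59 skin. It was lowest in Wnt-C59 skin (log2 fold change -5.06 ± 1.08 (SE), adjusted p = 0.0017), and Mlana fell by 3.62. Haemoglobin transcripts rose, with all 5 erythroid genes higher, beside 26.0% of all genes (median 2.63). Hbb-bs measured 24.5, 28.3, 76.4 and 40.6 CPM in syngeneic skin, 83.7, 22.0 and 108 CPM in allogeneic vehicle skin and 190.1, 253, 282 and 118 CPM in Wnt-C59 skin. Wnt-C59 skin was above syngeneic skin in every library (log2 fold change 2.31 ± 0.48 (SE), adjusted p = 0.0014), and Hba-a1, which has a near-identical copy, rose by 2.74 (3.40 without syngeneic library 3).

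Muscle and fat varied between libraries. Skeletal muscle markers had summed levels of 4575 to 9377 CPM in syngeneic, 11770 to 48720 CPM in allogeneic vehicle and 20090 to 61590 CPM in Wnt-C59 skin, and the median log2 fold change of 15 genes was 2.03. EdgeR called 0 of them, with 3 at an unadjusted p under 0.05, while DESeq2 called 4 and limma-voom 0. A fit of the 8 libraries alone called 11. For 10 of the 15 the libraries of both groups did not overlap, beside 24.6% of all genes higher without overlap. The main fit also drew its spread from the allogeneic vehicle and combination libraries. On the first principal component, the main axis of variation over all genes tested, the combination libraries lay at 103, 90.9, -40.7 and 2.00. Their part in the count of 0 was not tested. Acta1, skeletal muscle actin, measured 4889, 12580.0, 18120.0 and 6793 CPM in Wnt-C59 and 1365, 877, 741 and 1370.0 CPM in syngeneic skin, without overlap (log2 fold change 3.28 ± 1.34, adjusted p = 0.057), and Ckm, muscle creatine kinase, gave 2.88 ± 1.23 (adjusted p = 0.066). Among adipocyte markers Cidec, of lipid droplets, rose by 1.47 with overlapping ranges and did not pass at 1.00 with the GC trend removed (adjusted p = 0.067). Lep, the hormone leptin, measured 24.2, 24.8, 41.2 and 24.4 CPM in syngeneic skin, 1.09, 3.53 and 0.338 CPM in allogeneic vehicle skin and 5.38, 9.37, 4.95 and 19.2 CPM in Wnt-C59 skin. It fell (log2 fold change -1.56 ± 0.52 (SE), adjusted p = 0.023), and lost the call without syngeneic library 3 or Wnt-C59 library 1, 2 or 4 (log2 fold change -1.33, -1.36, -1.54 and -1.34). Adipoq, adiponectin, did not pass (0.69, adjusted p = 0.23), except without Wnt-C59 library 4 (1.02, adjusted p = 0.024).

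Cell cycle genes were partly lower under Wnt-C59 than in syngeneic skin. Of 22 genes 12 fell, beside 27.0% of all genes (median -0.75). Against allogeneic vehicle skin 4 of the 22 were higher and 6 lower, beside 24.6% and 26.2% of all genes (median difference -0.20). Mki67, the proliferation marker Ki-67, measured 397, 276, 236 and 226 CPM in syngeneic skin, 199, 82.5 and 133 CPM in allogeneic vehicle skin and 35.9, 28.0, 24.0 and 41.0 CPM in Wnt-C59 skin. No Wnt-C59 library overlapped either vehicle group (log2 fold change -3.14 ± 0.41 (SE), adjusted p = 5.5e-05), and the level was also below allogeneic vehicle skin (log2 difference -2.10, adjusted p = 0.00091). Top2a, a topoisomerase of dividing cells, and the mitotic kinase Bub1 fell by 2.06 and 2.87 (log2). With the GC trend removed 13 of the 22 fell, beside 23.0% of all genes. Of the 13 hair matrix genes, which mark a dividing tissue, 9 fell alongside, and their part was not tested.

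Glycolysis and hypoxia genes stayed raised, with 10 of 13 higher and 1 lower, beside 26.0% and 27.0% of all genes (median 1.35, and 1.69 with vehicle). Slc2a1, the glucose transporter GLUT1, measured 52.8, 48.5, 52.3 and 52.2 CPM in syngeneic skin, 485, 182 and 355 CPM in allogeneic vehicle skin and 153, 138, 161 and 148 CPM in Wnt-C59 skin. The 3 groups did not overlap (log2 fold change 1.54 ± 0.30 (SE), adjusted p = 0.00067). Ldha, lactate dehydrogenase, measured 439, 404, 531 and 509.9 CPM in syngeneic skin, 1509, 1644 and 1066 CPM in allogeneic vehicle skin and 964, 1559, 1941 and 1148 CPM in Wnt-C59 skin, and Wnt-C59 skin overlapped allogeneic vehicle skin (log2 fold change 1.57 ± 0.30 (SE), adjusted p = 0.00068). Hk1, a hexokinase, rose by 1.65 (log2). The summed skeletal muscle markers, given above, lay higher in all Wnt-C59 than in all syngeneic libraries, and their part in the glycolysis genes was not tested. Of 74 tested nuclear genes of oxidative phosphorylation, which muscle also expresses, 21 rose and 5 fell, the first share close to the 26.0% of all genes and the second below the 27.0%, and 13 rose without syngeneic library 1 or 2 or Wnt-C59 library 4. Once the GC trend was removed, 21 rose and 8 fell, beside 22.3% and 23.0% of all genes. Of 13 mitochondrially encoded genes 1 rose and 2 fell, below the 26.0% and 27.0% of all genes. The short transcript mt-Nd3 measured 286, 328, 252 and 273 CPM in syngeneic skin, 313, 320.1 and 109.7 CPM in allogeneic vehicle skin and 9.48, 8.38, 19.0 and 18.7 CPM in Wnt-C59 skin. It was low in Wnt-C59 skin alone among these groups (log2 fold change -4.36 ± 0.48 (SE), adjusted p = 2.3e-05). With the GC trend removed 9 of the 13 rose and 1 fell, beside 22.3% and 23.0% of all genes.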

How the data were processed

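Skin RNA of 15 libraries was sequenced, and the authors deposited estimated counts per gene, by versioned Ensembl ID, as 1 table. Per the submitters' processing notes, FastQC, Trim Galore, HISAT2 and featureCounts were used with build GRCm39. Versions, strand setting and the step that left fractions in the counts are not given in the sources used here, so overlapping and antisense genes, and near-identical copies, cannot be told apart with certainty. The design had assumed whole counts. The deposited estimated counts were therefore rounded, scaled by TMM and tested with edgeR 4.0.16 (robust quasi-likelihood, filterByExpr, group as the only term, all 15 libraries sharing the spread) in R 4.3.3. CPM are TMM-scaled. P-values were adjusted by Benjamini-Hochberg over 18651 genes. SE is the absolute log2 fold change divided by the square root of F. List scores are mean log2 CPM with a prior count of 2.

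Symbols, GC content and promoters came from GENCODE and RefSeq tables of GRCm38 (51276 of 56059 genes matched). Named genes were the 12 with the largest rise and fall among called genes of at least 5 CPM without overlap, up to 5 called members per list and direction, and a fixed set. Some genes that this rule took are not reported here. The members and lists were chosen with earlier results of these data known. Groups came from the labels. Combination columns were matched by elimination. Wnt-C59 columns carry other numbers than the sample titles. Alternatives were DESeq2 1.42.0, limma 3.58.1 voom, upper-quartile scaling, no filter, the compared groups alone, removal of a GC trend (lowess, span 0.3, per library), adipocyte and muscle scores as covariates, and leaving out each library. On simulated data with 200 changed genes, the test found 44% of 2-fold and 78% of 4-fold changes for this comparison over 17791 genes. The simulated data held far fewer changed genes than the 9898 called here and no GC or length trend. The shares found may therefore differ in the real data. Intervals and floors (3 counts per library) cover counting error only.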

Additional observations from a re-analysis of the deposited data

Results flagged for a closer look

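In groups of 4, 168 genes were searched for a library whose gap to the nearest of the others exceeds Dixon's critical value for 4 samples (95% level), as a share of the group's range. This held in 28 of 336 groups, and chance gives about 1 in 20.

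In Wnt-C59 library 4, 7 genes stood apart. The liver genes were high there: Alb at 1184 CPM against at most 19.4 CPM in the other 3 libraries, Ahsg at 147 against at most 0.998 CPM, Ttr at 76.6 against at most 0.694 CPM, Hpd at 43.9 against at most 1.66 CPM, Itih4 at 36.9 against at most 1.23 CPM and Apoc3 at 35.0 against at most 0.998 CPM. Cd4 was low there, at 5.94 CPM against at least 8.28 CPM. Wnt-C59 library 1 was high for Krt16 (1182 CPM against at most 208), Krt6a (1471 against at most 575), Krt6b (1243 against at most 131), Cd3e (5.54 against at most 3.62) and Lef1 (5.95 against at most 3.18). In Wnt-C59 library 5, Igkc reached 131 CPM against at most 8.71 and Jchain 57.3 against at most 3.27, Krt25 measured 0.0950 CPM against 0 in the others, and Dkk3 was low at 46.9 CPM against at least 59.4.

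Syngeneic library 3 was high for Cxcl9 (8.29 CPM against at most 3.62), Lyz2 (305 against at most 191), Col15a1 (158 against at most 103) and Lep (41.2 against at most 24.8), low for Dsc1 (129 against at least 312), and held the syngeneic counts of Apoc3 (0.0915 CPM against 0). Syngeneic library 4 was high for Cd8a (0.353 CPM against at most 0.0927) and Il1f9 (29.0 against at most 16.1). In syngeneic library 1, Itih4 was low at 0.0459 CPM against at least 0.220, Cdsn low at 288 against at least 501, and Sfrp1 high at 122 against at most 109. Slc2a1 in syngeneic library 2 measured 48.5 CPM against at least 52.2.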

How the results depend on the processing

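Under the alternatives other than leaving out a library, the number of genes called between Wnt-C59 and syngeneic skin stayed within 1.5 times of 9898. Leaving out each library gave 8242 to 9939 genes (4017 to 4847 higher, 4225 to 5092 lower). For allogeneic vehicle against syngeneic skin it gave 3905 to 5076 genes (2252 to 2750 higher, 1653 to 2565 lower), lowest for the lower genes without allogeneic library 3. For Wnt-C59 against allogeneic vehicle skin it gave 7942 to 9295 genes (3717 to 4480 higher, 4203 to 4815 lower). When the adipocyte score entered as a covariate, 3157 genes differed between allogeneic vehicle and syngeneic skin (1685 higher, 1472 lower) and 3697 between Wnt-C59 and allogeneic vehicle skin (2006 higher, 1691 lower), and the cause was not tested.

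Of 168 named genes, 125 kept their direction and their side of the threshold under every alternative run. Of 156 called genes, limma-voom lost 19, removal of the GC trend 8 besides Wls, the muscle score 7, no filter 6, the adipocyte score 4, and DESeq2, upper-quartile scaling and a fit of the compared groups alone 0. A change of sign was seen in genes that did not pass, and in Wls (0.13 with the GC trend removed). These were Mrc1 (-0.04 without syngeneic library 2, -0.00 without Wnt-C59 library 1, -0.07 without library 5, up to 0.20 without library 4), Axin2 (0.05 without Wnt-C59 library 4, 0.10 without library 5, down to -0.42 without library 2), Porcn (-0.17 with the GC trend removed), and Scd1 and Adipoq (-0.31 and -0.41 with the adipocyte score). The causes were not tested. No paired analysis was possible because the Wnt-C59 columns carry numbers that are not the replicate numbers of the sample titles. Depth limits genes near 0, where a few counts set the fold change.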
